A study of Mus musculus with 27 samples.

Results

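The genes described here are Ifnb1, which encodes interferon beta, the receptor chains Ifnar1, Ifnar2, Ifngr1 and Ifngr2, and the receptor inhibitor Usp18. These 6 genes were taken by symbol from the 55483 genes of a count table of RAW264.7 cells, a mouse macrophage line, and all 6 passed the filter on low counts in every comparison, Ifnb1 through its libraries with LPS. Cells were cultured for 6 h with DMSO, with LPS at 1 µg/ml in DMSO, or with LPS at the same dose and TM7nox at 10 µM. LPS is a bacterial cell wall lipopolysaccharide that activates macrophages. TM7nox is a tanshinone mimic, one of a group of small molecules made to interfere with the binding of RNA by HuR, a protein encoded by Elavl1. Each treatment had 4 total RNA libraries, 4 libraries of RNA recovered with an anti-HuR antibody (ribonucleoprotein immunoprecipitation, RIP) and 1 library of RNA recovered with control IgG, which was replicate 3. All groups come from this 1 transformed line, and no group received TM7nox without LPS.

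Type I interferons such as interferon beta bind a receptor made of the Ifnar1 and Ifnar2 chains, and interferon gamma binds a receptor made of the Ifngr1 and Ifngr2 chains. Kinases of the JAK family bound to these chains phosphorylate STAT proteins, which then switch on interferon target genes. Activated macrophages make interferon beta through Toll-like receptor signalling and respond to it themselves. Usp18 is an interferon target that binds Ifnar2 and damps signalling, and it also removes the ubiquitin-like protein Isg15 from its substrates. HuR binds U-rich and AU-rich stretches, many of them in 3′ untranslated regions (3′ UTRs).

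For 5 of the genes, the 30-base window of the 3′ UTR with the most bases in such stretches is printed because the RIP results turn on recovery by HuR. Capitals mark AUUUA, UUAUUUAUU or UUUUU, with overlapping matches allowed, read on the mRNA strand of GRCm39 and written 5′ to 3′.
Ifnb1, chr4:88440323-88440352, minus strand: aaaacagagUUUUUauuaAUUUAuaAUUUA
Ifnar2, chr16:91202190-91202219, plus strand: gggacugauaaaacccuugucggacUUUUU
Ifngr1, chr10:19485732-19485761, plus strand: gacaggguggaccgggUUUUUUUUUUUUUU
Ifngr2, chr16:91360396-91360425, plus strand: ugguaAUUUAagucUUUUUUUUUUUUUUUU
Usp18, chr6:121247557-121247586, plus strand: aauaAUUUAaaaacaauuaagcccuAUUUA

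Over the whole 3′ UTR, Ifngr2 held 26 overlapping matches to UUUUU in 2619 bases and Ifnar1 held 16 in 2030 bases. Ifngr1 held 15 in 541 bases, Ifnar2 held 5 in 1421 bases, Ifnb1 held 3 in 201 bases and Usp18 held 0 in 401 bases. Per kilobase the order differed, with 27.7 in Ifngr1, 14.9 in Ifnb1, 9.93 in Ifngr2, 7.88 in Ifnar1, 3.52 in Ifnar2 and 0 in Usp18. AUUUA was matched 6 times in Ifngr2, 4 times in Ifnb1, 2 times in Usp18 and once in Ifnar1, and was not matched in Ifnar2 or Ifngr1. The nonamer UUAUUUAUU was in none of the 6. Among 20345 mouse 3′ UTRs of at least 50 bases, 75.8% held UUUUU, 68.6% held AUUUA and 8.51% held the nonamer. The share of U was above that of 21.4% of these 3′ UTRs for Ifnar1, 23.7% for Ifngr2 and 44.1% for Ifnar2. For Usp18, Ifngr1 and Ifnb1 it was above that of 49%, 66.6% and 85.9%. A match is a stretch of letters in the annotated transcript, not a measured binding site, and the nonamer contains the AUUUA word.

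**Figure D1:**
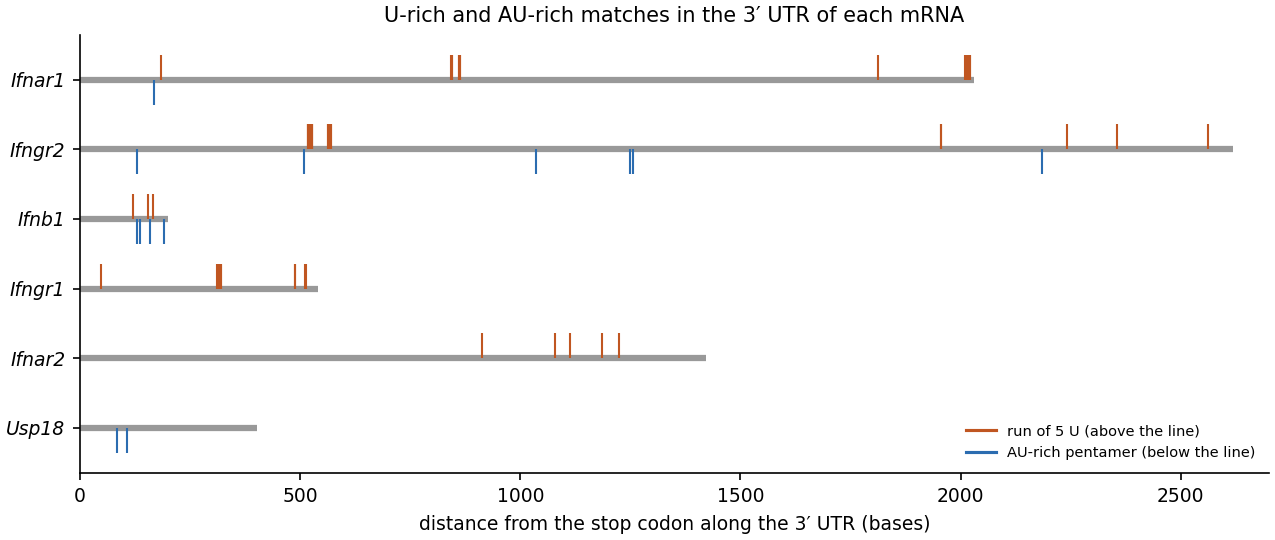
The 3′ UTR of each mRNA (grey line) is drawn to scale from the stop codon, in bases, with runs of 5 U marked above the line and AU-rich pentamers below it. Ifngr2 and Ifnar1 have the longest 3′ UTRs, at 2619 and 2030 bases, and Usp18 has no run of 5 U.

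Ifnb1 lies on chromosome 4 (GRCm39, 88440262 to 88441011, minus strand) and has a single exon. Ifnar2 (91169618 to 91202723), Ifnar1 (91281942 to 91305789) and Ifngr2 (91343906 to 91362512) lie on the plus strand of chromosome 16 within 193 kb, together with Il10rb, which encodes a chain shared by the receptors of interleukin 10 and interferon lambda. Ifngr1 lies apart, on chromosome 10 (19467697 to 19485977), and Usp18 lies on chromosome 6 (121222848 to 121247877). Ifnar2 shares exons with the same-strand gene Gm21970, which had 0 counts in the 27 libraries, so reads of shared exons could have been set aside as ambiguous. Usp18 shares exon bases with Gm44148 on the other strand, which had 52 counts in all 27 libraries.

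Levels are given as CPM, read counts scaled to a common library size, on 1 scale over the 27 libraries. The RNA libraries held 2.73 to 28.3 M counts, the RIP libraries 19.8 to 41.4 M and the IgG libraries 8.87 to 24.5 M. The fewest counts, 2.73 M, were in RNA DMSO replicate 1. Of 10 macrophage markers, 9 had a mean over 5 CPM in each treatment, and Mertk was near 0, with a median of 0.537 CPM. The summed level of the 10 was 5320 to 6580 CPM in DMSO, 5140 to 7090 with LPS and 3610 to 6350 with LPS and TM7nox. T cell, B cell, fibroblast, epithelial and NK cell markers each summed to at most 0.34 CPM. Of the plasmacytoid dendritic cell markers, Siglech was at most 0.212 CPM, while Tcf4 and Bst2 were present. These markers summed to 67.8 to 96.3 CPM in DMSO, 184 to 239 with LPS and 172 to 255 with LPS and TM7nox. The labels do not say whether replicates were separate cultures, so p-values measure only the spread between these libraries. In bulk RNA, fewer cells making a transcript and less transcript per cell cannot be told apart.

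LPS raised Ifnb1 and Usp18 in total RNA and lowered Ifngr1, so 3 of the 6 genes were called, at an adjusted p (false discovery rate, FDR) under 0.05. The background in that comparison was 42% of 12369 genes called, 20.2% higher and 21.7% lower. Scaling by total counts alone, which shifted the median log2 change of all genes by -0.28, gave 1629 genes higher and 4253 lower in place of 2500 and 2690. The other 3 chains, Ifnar1, Ifnar2 and Ifngr2, were not called in this edgeR fit without the replicate block. Ifngr2 was called as well in 6 of 15 alternatives, among them DESeq2 and the fit without the shallow RNA DMSO replicate 1.

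Ifnb1 was almost undetected without LPS. The 4 RNA libraries in DMSO held 0, 3, 0 and 2 reads, or 0, 0.0772, 0 and 0.0657 CPM in replicates 1 to 4. With LPS they held 77, 241, 328 and 340 reads, or 3.29, 7.77, 11.3 and 10.6 CPM. All LPS libraries lay above all DMSO libraries, and replicate 1 was the lowest of the LPS libraries. The mean rose from 0.0357 ± 0.0415 to 8.23 ± 3.63 CPM (SD, n = 4), a fitted log2 change of 7.30 ± 1.52 (SE), with an FDR of 0.000102. That change rests on 5 reads over the DMSO libraries, and its 95% interval ran from 4.05 to 10.6 on the log2 scale. It exceeded the change of 99.5% of the genes tested. Because Ifnb1 passed the filter on low counts through its libraries with LPS, a rise came with its being tested. The FDR and the rank describe that rise and are no separate support for it.

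Ifnb1 also held nearly all the reads of interferon ligand genes. Of 19 other ligand genes in the table (the Ifna genes, Ifng, Ifnk, Ifne, Ifnz and the lambda genes), 6 had no read in any library and 13 had 106 reads together over the 27 libraries. Ifnb1 alone had 4206 reads. The highest of the others, Ifna13, had 55, of which 12 were in the 12 RNA libraries, and Ifng had 5 in all. None of the 19 had enough counts to be tested.

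The Ifnb1 promoter is printed because its gene had the largest LPS change of the 6. The stretch from 130 to 51 bases before the RefSeq start (GRCm38.p6, chr4:88522845-88522924, minus strand) holds in capitals the 1 match to a kappa B-like word, GGGA and TTCC separated by any 2 bases.
Ifnb1 promoter: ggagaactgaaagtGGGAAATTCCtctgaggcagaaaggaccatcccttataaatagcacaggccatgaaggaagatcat
RefSeq windows of 250 bases before to 50 after the start were at hand for Ifnb1 and the 4 receptor genes. Searched on both strands, that word was in 1.47% of 32851 promoters, and among the 5 it was matched in Ifnb1, beginning 116 bases before the start, and in Ifngr2. An interferon-type word, GAAA and GAAA separated by any 2 bases, was in 3.44% of promoters and in none of the 5 windows.

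With TM7nox added to LPS, Ifnb1 was lower in each of the 4 same-numbered pairs of RNA libraries, by very different amounts. The libraries held 0.146, 1.87, 6.84 and 6.46 CPM in replicates 1 to 4, from 3, 51, 216 and 152 reads. The ratios to the same-numbered LPS libraries correspond to log2 differences of -4.50, -2.05, -0.72 and -0.72. Replicates 1 and 2 fell furthest, and replicates 3 and 4 remained within the range of the LPS libraries. The mean was 3.83 ± 3.33 CPM (SD, n = 4), with a fitted log2 change of -1.09 ± 0.66 (SE) and an FDR of 0.332, which is not called.

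Replicate numbers paired the libraries, so a fit with the replicate number as a block is given where it changes a call. With that block, Ifnb1 fell by 1.48 on the log2 scale with an FDR of 0.0202. In replicates 3 and 4 alone the log2 change was -0.69 with an FDR of 0.0157, and without the filter on low counts the FDR was 0.00395. Over all alternatives the log2 change lay between -2.42 and -0.69, and 3 of 15 passed the threshold. Ifnb1 with LPS and TM7nox was still above DMSO, by a log2 change of 6.21 (FDR 0.000363), although replicates 1 and 2 alone gave an FDR of 0.0901. The limit set by the filter, given above for LPS, holds for this difference too. In that comparison 3 of the 6 genes were called, Ifnb1, Usp18 and Ifngr1, where 47.3% of genes were (23.7% higher, 23.6% lower), and it shares its libraries with the other 2.

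**Figure D2:**
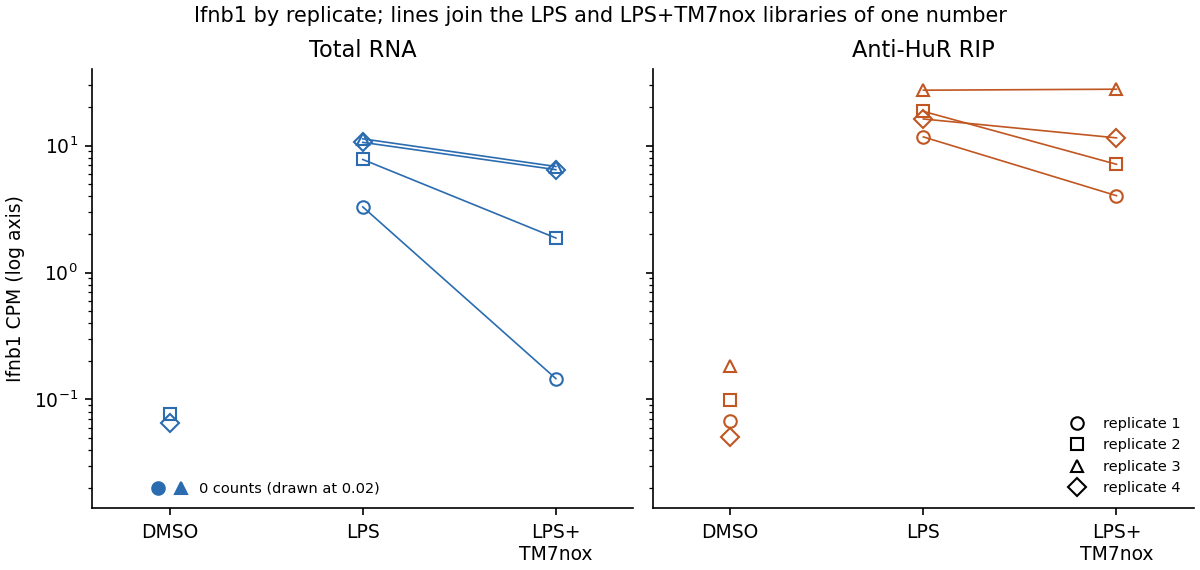
Ifnb1 CPM (log axis) in total RNA and anti-HuR RIP libraries by treatment, 1 point per library, with a line joining the LPS and LPS+TM7nox libraries of a replicate number and filled points for 2 libraries with 0 counts. In total RNA all 4 lines go down, from 3.29 to 0.146 CPM in replicate 1 and from 11.3 to 6.84 CPM in replicate 3.

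Ifngr1, the ligand-binding chain of the interferon gamma receptor, was the receptor gene that LPS lowered. Its RNA levels were 19.7, 28.3, 29.3 and 28.9 CPM in DMSO and 14.1, 16.7, 14 and 15.4 CPM with LPS. The groups did not overlap, and the shallow DMSO replicate 1 was the lowest of its group. The log2 change was -0.86 ± 0.13 (SE), a 1.81-fold drop, with an FDR of 8.55e-05. In replicates 1 and 2 alone the FDR was 0.144, above the threshold. With TM7nox added the levels were 15.6, 16.4, 15.9 and 14.9 CPM, within 0.33 of the LPS level on the log2 scale by the 95% interval of -0.21 to 0.33 (FDR 0.81). Against DMSO they were again lower, by a log2 change of -0.79 (FDR 0.000134), a call lost in replicates 1 and 2 alone (-0.58, FDR 0.155).

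Ifngr2, the second chain of the same receptor, had its highest values with LPS. It was at 104, 92.7, 71.6 and 73.7 CPM in DMSO, at 149, 138, 88.2 and 100 CPM with LPS and at 88.9, 84.2, 60.2 and 76.3 CPM with LPS and TM7nox. Replicates 1 and 2 were higher than replicates 3 and 4 in DMSO and in LPS, and the groups overlap, but each LPS library was above the same-numbered DMSO and LPS+TM7nox libraries. LPS changed it by 0.44 ± 0.19 (SE) on the log2 scale, with an FDR of 0.0835, which is not called. The FDR was 0.00118 with the replicate block, 0.048 in DESeq2, 0.0126 without the filter on low counts, 0.0146 in replicates 3 and 4 alone, 0.0297 without RNA DMSO replicate 1 and 0.0363 without RNA LPS replicate 3.

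The drop of Ifngr2 with TM7nox, a log2 change of -0.62 ± 0.19 (SE), passed the threshold narrowly, with an FDR of 0.04997. It was the 1 gene of the 6 called in that comparison, where 13.8% of 12369 genes were called (7.37% higher, 6.4% lower), or 3091 in place of 1704 genes with the replicate block. With that block the FDR of Ifngr2 was 0.000322. Leaving out any one of RNA LPS replicates 1 and 2 or the 4 LPS+TM7nox libraries ended the call, with an FDR from 0.0522 to 0.1445. Scaling by total counts alone (-0.67, FDR 0.07) and the use of replicates 1 and 2 alone (-0.73, FDR 0.134) also ended it. The level with LPS and TM7nox was not called against DMSO (log2 change -0.17, FDR 0.493).

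Ifnar1 showed a similar pattern by replicate and was not called for LPS, or for TM7nox against LPS, in the fit of all 12 RNA libraries without the block. Its RNA levels were 58.3, 46.9, 55.9 and 46 CPM in DMSO, 85.2, 72.1, 49.7 and 49.9 CPM with LPS and 53.8, 49.5, 40 and 41.6 CPM with LPS and TM7nox. LPS replicates 1 and 2 stood above every other library, and replicates 3 and 4 lay within the DMSO range. The log2 change with LPS was 0.28 ± 0.19 (SE, FDR 0.255), and it was -0.03 in replicates 3 and 4 alone. With TM7nox the log2 change was -0.47 ± 0.19 (SE, FDR 0.119), lower in 4 of 4 pairs, with -0.45 and an FDR of 0.0179 under the replicate block. So with the block 3 of the 6 genes, Ifnb1, Ifnar1 and Ifngr2, were called lower with TM7nox, beside 12.7% of all genes lower and 12.3% higher. Against DMSO, Ifnar1 with LPS and TM7nox was at -0.19 on the log2 scale (FDR 0.432) and was called in 1 of 15 alternatives, replicates 3 and 4 alone (-0.29, FDR 0.0361).

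Ifnar2, the chain of the type I receptor to which Usp18 binds, varied little. Its RNA levels were 30.7, 31.3, 33.1 and 33.8 CPM in DMSO, 24.3, 29.9, 28.3 and 29.5 CPM with LPS and 31.9, 30.9, 26.1 and 27.2 CPM with LPS and TM7nox. All LPS libraries were below all DMSO libraries, yet the log2 change of -0.24 ± 0.11 (SE) was not called (FDR 0.104). Total counts alone called it lower with LPS (-0.53, FDR 0.00303) and with LPS and TM7nox against DMSO (-0.50, FDR 0.00365), as did replicates 3 and 4 alone in the second of these (-0.30, FDR 0.0135). With TMM scaling and all libraries the second was -0.18 (FDR 0.199). Adding TM7nox changed the log2 level by 0.06, with a 95% interval of -0.18 to 0.29 (FDR 0.812). Counts per gene do not separate the membrane and soluble forms of Ifnar2 that mouse cells make.

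**Figure D3:**
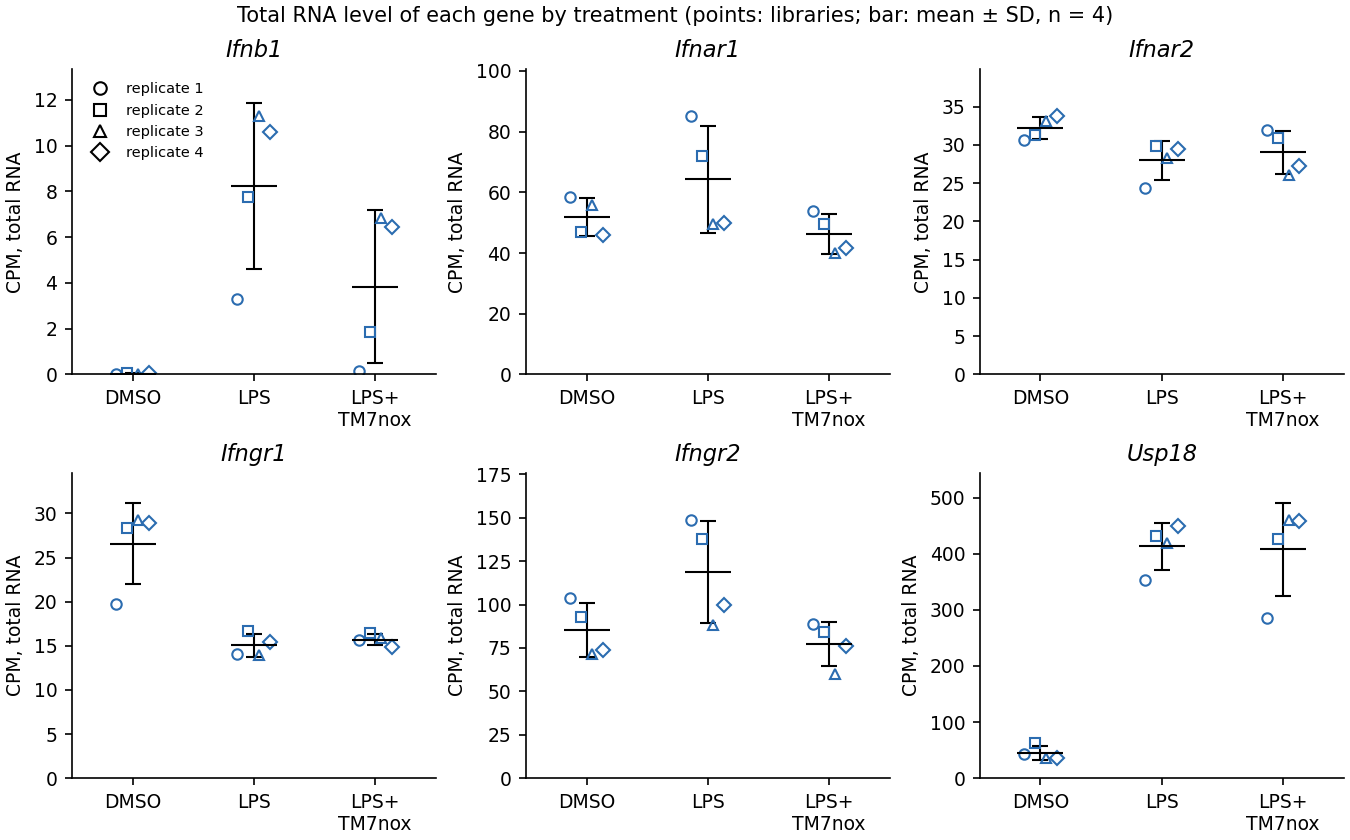
CPM in total RNA for the 6 genes, 1 panel per gene, with a point per library (shape by replicate number) and bars for the mean ± SD of 4 libraries. LPS libraries lie above DMSO without overlap for Ifnb1 and Usp18 and below it for Ifngr1 and Ifnar2, of which Ifnar2 was not called. The share of all genes without overlap was not computed, so this is a description. Usp18 is at 408 CPM with TM7nox against 414 CPM with LPS alone.

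Usp18 rose 9.08-fold with LPS, and no difference with TM7nox was called. Its RNA levels were 42.2, 63.5, 36.3 and 36 CPM in DMSO, 354, 431, 419 and 450 CPM with LPS and 285, 427, 461 and 458 CPM with LPS and TM7nox. The LPS and LPS+TM7nox libraries overlapped, with replicate 1 lowest in both, and all lay above DMSO. LPS changed it by 3.18 ± 0.19 (SE, FDR 3.68e-08) on the log2 scale. With TM7nox it was -0.02, with a 95% interval of -0.42 to 0.39 (FDR 0.972), and its sign differed between alternatives.

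Per kilobase of exon, which allows genes to be set against each other, the order of the means changed with LPS. In DMSO it was Ifngr2 (18.9 CPM per kb), Usp18 (13.7), Ifngr1 (9.33), Ifnar2 (8.61), Ifnar1 (6.38) and Ifnb1 (0.0477). The libraries of Ifngr2 and Usp18 overlapped, as did those of Ifngr1 and Ifnar2. Ifngr1 also overlapped Ifnar1, with 6.92 and 7.18 in replicate 1. With LPS the order of CPM per kb was Usp18 (127), Ifngr2 (26.3), Ifnb1 (11), Ifnar1 (7.91), Ifnar2 (7.49) and Ifngr1 (5.29). Ifnb1, Ifnar1 and Ifnar2 overlapped there with each other, and Ifnb1, at 4.39 in replicate 1, also overlapped Ifngr1. With TM7nox added, Usp18 (125 CPM per kb) and Ifngr2 (17.1) kept the first places, followed by Ifnar2 (7.76), Ifnar1 (5.7), Ifngr1 (5.52) and Ifnb1 (5.1). Ifnar1, Ifngr1 and Ifnb1 overlapped, and Ifnb1, at 9.11 and 8.61 in replicates 3 and 4, also overlapped Ifnar2.

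Other genes of the pathway are described by list, beside 20.2% of all genes higher and 21.7% lower with LPS. All 6 kinase and STAT genes tested rose, with a median log2 change of 1.44 beside -0.04 over all genes. Among them Jak2, a kinase of the interferon gamma receptor, changed by 2.90 ± 0.20 (SE) and Stat2, a subunit of the type I complex, by 2.84 ± 0.14 on the log2 scale. All 20 type I targets rose (median 4.03), including the antiviral gene Rsad2 at 6.70 and the chemokine gene Cxcl10 at 6.27. Of 12 interferon gamma targets, 8 had enough counts to be tested and 7 of these rose, with the GTPase genes Gbp5 at 8.33 and Gbp2b at 7.98. All 5 genes of Isg15 conjugation rose (median 3.18), among them Isg15 at 4.50 and Herc6 at 3.26, and Usp18 is counted here and among the inhibitors.

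In the next 3 lists the counts are to be read against the same 20.2% and 21.7%. Of 7 inhibitors, 3 rose, 0 fell and 4 were not called (median 0.27), and Socs3, which blocks JAK signalling, changed most, by 8.49. Of 10 genes that lead to Ifnb1 induction, 5 rose and 3 fell (median 1.02). The kinase gene Ikbke changed by 3.13 and the transcription factor gene Irf7 by 2.79. Of the 5 receptor chains tested, counting Il10rb and without Ifnlr1, 0 rose and 1 fell in edgeR without the block (2, Ifngr1 and Ifngr2, had an unadjusted p under 0.05), and 1, Ifngr2, rose in DESeq2 and with the block. With the replicate block, where 25.2% of all genes were higher and 27.2% lower, 4 inhibitors rose, with Ptpn11 added (0.27, FDR 0.0175), and 1 fell, Ptpn6 (-0.24, FDR 0.0265). The block also called Ly96 higher, which made 6 induction genes, and Cd74, which made 8 of 8 interferon gamma targets. DESeq2 called 4 inhibitors and 6 induction genes higher, where 23.2% of all genes were higher and 21.9% lower. Scaling by total counts alone called 5 of the 6 kinase and STAT genes and 4 of the 5 Isg15 conjugation genes higher, and turned the median of the inhibitors to -0.02. With that scaling 13.2% of all genes were higher and 34.4% lower. These lists were drawn up with results of these libraries known, so their direction is a description.

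With TM7nox added, most of these genes were not called. Of all genes 7.37% rose and 6.4% fell in this comparison. Of the 20 type I targets, 0 rose and 2 fell (median 0.05, all genes 0), a share near that background. Cxcl10 changed by -1.24 ± 0.21 (SE, FDR 0.00137), from 559 ± 26.1 to 236 ± 38.5 CPM, and Ifit2, an RNA-binding antiviral gene, by -1.07 ± 0.33 (FDR 0.0461), from 1970 ± 307 to 936 ± 158 CPM (SD, n = 4). None of the 6 kinase and STAT genes (1, Jak2, with an unadjusted p under 0.05) and none of the 5 Isg15 conjugation genes (0 with such a p) were called by edgeR without the block or by DESeq2.

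Of the 7 inhibitors 0 rose and 3 fell with TM7nox, beside 6.4% of all genes lower. These were Socs3 (-1.72 on the log2 scale, FDR 0.000118), Socs1 (-1.28, FDR 0.0437) and the phosphatase gene Ptpn6 (-0.83, FDR 0.000763). Of the 10 induction genes 4 rose and 2 fell, beside 7.37% and 6.4% of all genes, with the adaptor Ticam2 at 1.22 ± 0.30 (FDR 0.0155) and Ikbke at -1.01 ± 0.18 (FDR 0.00194). Ticam2 was at 8.75 ± 2.34 CPM in DMSO, 2.90 ± 1.23 with LPS and 6.76 ± 1.23 with LPS and TM7nox (SD, n = 4). Among the 8 interferon gamma targets tested, the transcription factor gene Irf1 alone was called, at -0.77 (FDR 0.048).

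The replicate block added calls to these lists, as it did over all genes, where it called 12.3% higher and 12.7% lower. Of the 6 kinase and STAT genes Jak2 was then lower (-0.51, FDR 0.0065), and of the 5 Isg15 conjugation genes again none was called. Of the 8 interferon gamma targets 5 were lower, Irf1 and also Gbp5 (-0.95, FDR 0.0033), Irf8, Irgm1 and Gbp2, and of the 20 type I targets 4 were lower, Cxcl10 and Ifit2 and also Ifit1 and Ifit3. Of the inhibitors 4 were lower, with the phosphatase gene Ptpn11 added, and of the induction genes 5 were higher, with Ly96 added, and 2 lower. DESeq2 called 3 of the 8 interferon gamma targets lower, beside 9.43% of all genes. Total counts alone left 1 type I target lower and 2 induction genes higher, beside 6.18% and 5.81% of all genes.

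In RIP libraries the same 3 genes were called with LPS as in total RNA, Ifnb1 and Usp18 higher and Ifngr1 lower, with 44.7% of 13614 genes called (23.5% higher, 21.2% lower). RIP levels follow the amount of transcript as well as its recovery. Scaling by total counts alone shifted the median of all genes by -0.63, gave 1299 genes higher and 6428 lower in place of 3201 and 2889, and called 5 of the 6.

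Ifnb1 in RIP libraries had 2, 3, 6 and 1 reads in DMSO, 11.7, 18.6, 27.3 and 16.2 CPM with LPS and 4.03, 7.12, 27.8 and 11.5 CPM with LPS and TM7nox. All LPS libraries were above all DMSO libraries, and replicate 3 was the highest in each treatment. The log2 change with LPS was 7.35 ± 0.81 (SE, FDR 1.96e-07), from 12 reads over the DMSO libraries, and here too the filter was passed through libraries with LPS. With TM7nox it was -0.59 ± 0.42 (SE, FDR 0.362), lower in 3 of 4 pairs. It was called with the replicate block (-0.85, FDR 0.00524) and without RIP LPS+TM7nox replicate 3 (-1.33, FDR 0.0173). Without RIP LPS+TM7nox replicate 1 it was -0.28 and not called.

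Ifngr1 in RIP libraries was at 46.9, 39.7, 65 and 38.1 CPM in DMSO, 28.1, 35.2, 38 and 21.6 CPM with LPS and 33, 38.8, 37.7 and 25.5 CPM with LPS and TM7nox. The DMSO and LPS libraries did not overlap, by a margin of 38.1 to 38 CPM. The log2 change with LPS was -0.64 ± 0.20 (SE, FDR 0.0174), and the call was lost without RIP DMSO replicate 3 (FDR 0.0537) and in replicates 1 and 2 alone (-0.49, FDR 0.117). Usp18 was at 30.4, 20, 13.8 and 13.5 CPM in DMSO, 212, 151, 216 and 225 CPM with LPS and 126, 126, 212 and 141 CPM with LPS and TM7nox. It rose with LPS by 3.34 ± 0.26 (SE, FDR 1.22e-07) on the log2 scale, with no overlap.

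Ifnar1 and Ifngr2 were high in every RIP library. Ifnar1 was at 540, 344, 519 and 507 CPM in DMSO, 598, 641, 520 and 379 CPM with LPS and 488, 547, 366 and 543 CPM with LPS and TM7nox. Ifngr2 was at 701, 608, 564 and 434 CPM in DMSO, 952, 1230, 808 and 480 CPM with LPS and 615, 954, 460 and 519 CPM with LPS and TM7nox. The treatments overlapped for both genes. With LPS the log2 change was 0.15 for Ifnar1 (FDR 0.604) and 0.57 for Ifngr2 (FDR 0.113), and under scaling by total counts alone Ifnar1 was called lower (-0.49, FDR 0.0373) and Ifngr2 was at -0.076 (FDR 0.809). Ifngr2 was called with the replicate block (0.51, FDR 0.0166) and without RIP LPS replicate 4 (0.74, FDR 0.0357). Without RIP LPS replicate 2 its log2 change was 0.31 and not called.

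Ifnar2 was low in RIP libraries, at 32.4, 18.8, 29.1 and 33.3 CPM in DMSO and 24.9, 20.8, 20.1 and 25.2 CPM with LPS. The log2 change with LPS was -0.33 (FDR 0.149), called lower with total counts alone (-0.95, FDR 0.0013) and without RIP DMSO replicate 2 (-0.53, FDR 0.021). With LPS and TM7nox it was at 37.2, 33.8, 31.3 and 30.2 CPM, all above the LPS libraries. The log2 change with TM7nox was 0.49 ± 0.18 (SE, FDR 0.0775), with an FDR of 0.0101 under the replicate block and 0.0492 in DESeq2. None of the 6 genes was called for TM7nox against LPS in the RIP libraries in the edgeR fit of all 12 libraries without the block (1 of the 6, Ifnar2, had an unadjusted p under 0.05), where 16.2% of genes were called (8.64% higher, 7.61% lower), or 2212 genes. Among the unblocked alternatives, DESeq2 called Ifnar2, and Ifnb1 was called without RIP LPS+TM7nox replicate 3, as above, and in replicates 1 and 2 alone (-1.49, FDR 0.0247). With the block 4577 genes were called and 3 of the 6, Ifnb1 and Ifngr2 lower (-0.47, FDR 0.0446) and Ifnar2 higher. Usp18 was lower in 4 of 4 pairs, with a log2 change of -0.46 and an FDR of 0.238.

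Recovery by anti-HuR, taken as the RIP level over the total RNA level, set the receptor chains apart from each other. TMM scaling assumes that most genes have equal levels, so this ratio is relative to the typical gene. In DMSO 4 of the 6 genes were called, Ifnar1, Ifngr2 and Ifngr1 higher in RIP and Usp18 lower, against a background of 70.4% of 14311 genes (37% higher, 33.4% lower). The same 4 were called with LPS, where the background was 63.7% (32.9% higher, 30.8% lower), and Ifnb1 joined them with LPS and TM7nox, where it was 69.9% (35.2% higher, 34.8% lower). A count near the background is no result about these genes, so the sizes of the ratios are given.

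Ifnar1 was 10-fold higher in RIP than in RNA in DMSO, a log2 ratio of 3.33 ± 0.19 (SE, FDR 4.62e-13), above 89.9% of the genes tested. Its log2 ratio was 3.07 with LPS and 3.38 with LPS and TM7nox, and the same-numbered ratios lay between 7.02 and 13 over the 12 pairs. Ifngr2 followed, with log2 ratios of 2.88 ± 0.24 (SE, FDR 4.54e-10), 2.88 and 3.03, above 86.3%, 88.4% and 86.9% of genes. Scaling by total counts alone lowered these log2 ratios to 2.52, 2.03 and 2.36 for Ifnar1 and 2.07, 1.84 and 1.99 for Ifngr2, all still called. No RIP library of either gene overlapped an RNA library of the same treatment.

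Ifngr1 was recovered less, with log2 ratios of 0.92 ± 0.19 (SE, FDR 0.000121) in DMSO, 1.03 with LPS and 1.08 with LPS and TM7nox. Under scaling by total counts alone these were 0.16, 0.01 and 0.08 and not called. That scaling shifted the median of all genes by -0.76, -1 and -0.98 in the 3 treatments, and it gave 3776, 2833 and 3324 genes higher in RIP in place of 5300, 4708 and 5031, and 7113, 8134 and 7903 lower in place of 4775, 4401 and 4975. DESeq2 size factors shifted the median the other way, by 0.15, 0.17 and 0.22.

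Of the receptor chains, Ifnar2 had the values nearest to 0 on this scale, with log2 ratios of -0.08, -0.30 and 0.17 in DMSO, LPS and LPS+TM7nox, none called (FDR 0.683, 0.104 and 0.337). Other scalings changed these calls. With total counts they were -0.86, -1.28 and -0.83, called lower in all 3 treatments (FDR 0.000104, 4.11e-07 and 0.000145). DESeq2 turned the ratio in DMSO to 0.070 (FDR 0.686) and called that in LPS+TM7nox higher (0.39, FDR 0.0142, and 0.0206 with its size factors in edgeR). In LPS it was called lower without RNA LPS replicate 1 (-0.39, FDR 0.0479). Usp18 was lower in RIP than in RNA in all 12 pairs, with log2 ratios of -1.08 ± 0.25 (SE, FDR 0.000535), -1.04 and -1.48, and it kept that direction and call under each alternative run.

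Ifnb1 had log2 ratios of 1.14 ± 0.57 (SE, FDR 0.0864) with LPS and 1.62 ± 0.59 (FDR 0.018) with LPS and TM7nox. The RIP level was 3.54, 2.39, 2.42 and 1.53 times the RNA level in LPS replicates 1 to 4, and 27.7, 3.8, 4.07 and 1.78 times with TM7nox. The ratio of 27.7 rests on 3 reads in the RNA library. The LPS ratio was called in 4 of 15 alternatives, with the replicate block (1.30, FDR 0.00185), with DESeq2 size factors (1.33, FDR 0.0436), without the filter on low counts (1.09, FDR 0.0001) and in replicates 3 and 4 alone (0.95, FDR 0.0225). The call with TM7nox was lost without RNA LPS+TM7nox replicate 2 (FDR 0.0612), without RIP LPS+TM7nox replicate 3 (0.97, FDR 0.142) and with total counts (FDR 0.246). In DMSO, with 5 reads in RNA and 12 in RIP, the ratio was not determined (95% interval -2.48 to 4.79).

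**Figure D4:**
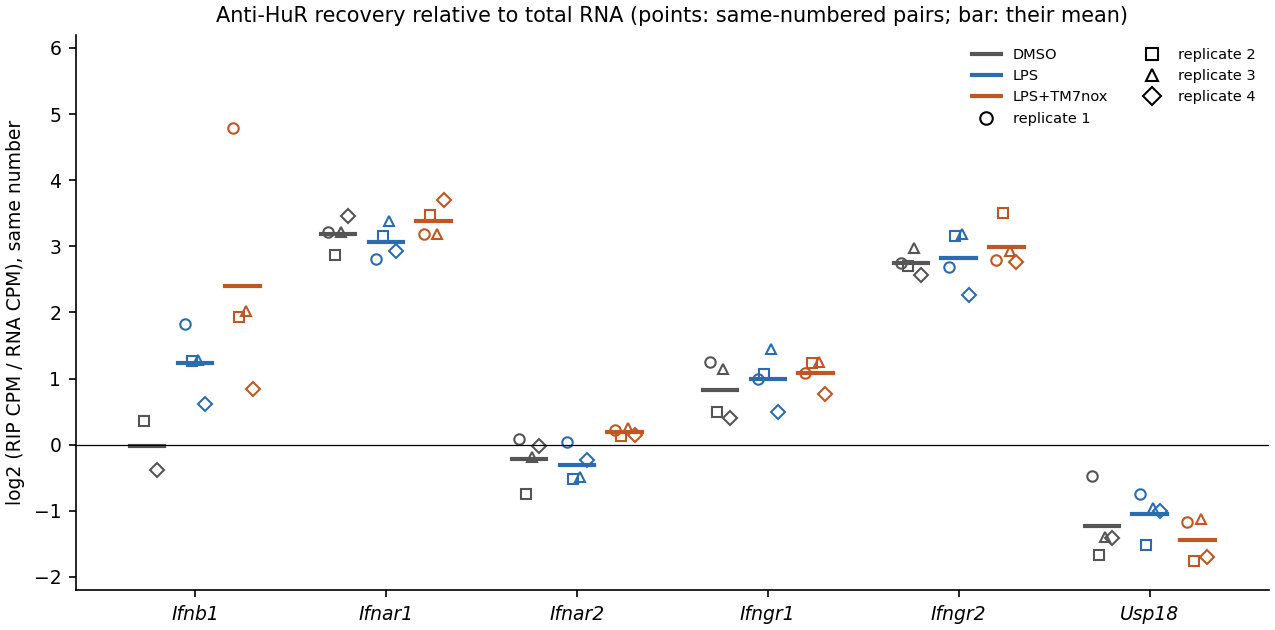
The log2 ratio of RIP to total RNA CPM for each same-numbered pair of libraries (points) and their mean (bar), by gene and treatment; for Ifnb1 in DMSO only 2 pairs have reads in RNA. Ifnar1 and Ifngr2 lie near 3 in every treatment, Ifnar2 near 0 and Usp18 below 0, and the Ifnb1 replicate 1 pair with TM7nox stands at 4.79.

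The recovery ratio of the 6 genes was not called as changed by LPS or by TM7nox. The interaction called 0.0419% of 14311 genes for LPS (0.014% higher, 0.028% lower) and 0.00699% for TM7nox, which is 6 genes and 1 gene, or 50 and 2 with the replicate block. Scaling by total counts alone called 2 higher and 25 lower for LPS, in place of 2 and 4. For TM7nox the change in log2 ratio was 0.31 for Ifnar1 (95% interval -0.25 to 0.86), 0.15 for Ifngr2 (-0.56 to 0.86) and 0.05 for Ifngr1 (-0.50 to 0.60). It was -0.44 for Usp18 (-1.16 to 0.28) and 0.48 for Ifnb1 (-1.20 to 2.17). The smallest unadjusted p was that of Ifnar2, 0.0464, for a change of 0.47 (0.01 to 0.92, FDR 0.871), and no other of these 12 tests had an unadjusted p under 0.05. Under DESeq2, as under the replicate block, 0 of the 6 genes was called. For Ifnb1 the interval spans changes of more than 2-fold either way.

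Control IgG gave the background of the RIP. In the DMSO, LPS and LPS+TM7nox IgG libraries Ifnar1 was at 40.9, 54.3 and 36.7 CPM and Ifngr2 at 45.5, 68.8 and 45.6 CPM, below their levels in every RIP library. Ifngr1 was at 24, 16.6 and 14.1 CPM and Ifnar2 at 25.3, 17.6 and 20.3 CPM. Usp18 was at 39.4, 521 and 512 CPM in IgG, above its RIP libraries in the same treatments, and Ifnb1 at 0.104, 8.22 and 7.14 CPM.

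Over all treatments, 4 of the 6 genes were called between anti-HuR and IgG, where 68.1% of 14973 genes were called (33.8% higher, 34.2% lower). The log2 difference was 3.69 ± 0.24 (SE, FDR 4.27e-09) for Ifngr2, 12.9-fold and above 94.2% of genes, and 3.50 ± 0.19 (FDR 3.47e-10) for Ifnar1, above 93.2%. It was 1.01 (FDR 0.000119) for Ifngr1 and -1.43 (FDR 6.52e-06) for Usp18, whereas 0.87 for Ifnb1 (FDR 0.0938) and 0.39 for Ifnar2 (FDR 0.0532) were not called. Both depended on the setting. Within the replicate 3 libraries, the number that all IgG libraries carry, Ifnb1 was at 1.77 (FDR 1.42e-06) and Ifnar2 at 0.37 (FDR 0.0345), both called. Ifnb1 was called in 4 of 20 alternatives, including no filter on low counts (FDR 0.00106) and those without RIP LPS+TM7nox replicate 1 or replicate 2 (FDR 0.0234 and 0.0489). Ifnar2 was called in 12 of 20, including DESeq2 (0.51, FDR 0.00424), and leaving out any of 7 single libraries gave a call: RIP DMSO replicate 2 or 3, RIP LPS replicate 2 or 3, RIP LPS+TM7nox replicate 2 or 4, or the DMSO IgG library (FDR 0.0127 to 0.0489). Total counts alone shifted the median by -1.02, gave 2903 higher and 8357 lower in place of 5067 and 5127, and turned Ifngr1, Ifnb1 and Ifnar2 to -0.02, -0.20 and -0.64, the last called lower (FDR 0.00304). DESeq2 size factors shifted it by 0.13. With 1 IgG library per treatment, this test cannot be made within a treatment.

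Recovery of other genes of the pathway is given by list for DMSO, where 37% of all genes were higher in RIP and 33.4% lower. There, 1 of 20 type I targets was higher in RIP and 13 lower (median log2 ratio -0.88, all genes 0.04), and of the 5 Isg15 conjugation genes 0 were higher and 4 lower (median -1.08). Of 6 kinase and STAT genes 1 was higher and 3 lower, and of 8 interferon gamma targets 0 were higher and 3 lower. Against that background, counts in lists of so few genes are no result about the lists. Of 7 inhibitors 2 were higher and 3 lower (median 0.36), and of 10 induction genes 2 were higher and 5 lower (median -0.70). With total counts alone, where 26.4% of all genes were higher and 49.7% lower, the lower counts were 18 of 20 type I targets, 7 of 8 interferon gamma targets and 8 of 10 induction genes, and the median of the inhibitors turned to -0.43. DESeq2 moved calls the other way, with 4 of 7 inhibitors and 3 of 6 kinase and STAT genes higher, beside 40.2% of all genes. The replicate block called 3 and 2 of them higher, beside 39% of all genes. Single genes of these lists reached ratios like those of Ifnar1 and Ifngr2, among them Il10rb (3.44 on the log2 scale, FDR 1.7e-14) and Socs1 (3.06, FDR 8.23e-06), and Tlr4, the LPS receptor, was at 2.10 (FDR 1.11e-09). The 5 receptor chains tested had 4 higher and 0 lower, with a median of 2.88.

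The ratio of the 2 chains of a receptor within a library needs no scaling between libraries. It was compared by exact two-sided permutation tests chosen after the values above had been seen, 14 in all, with 4 libraries a group and a smallest possible p of 0.0286. Complete separation of 2 groups always gives that p, so it restates the separation and is a description. Reads of Ifnar1 over Ifnar2 were 1.36 to 1.9 in DMSO RNA, 1.69 to 3.5 with LPS and 1.53 to 1.69 with LPS and TM7nox. In RIP they were 15.3 to 18.3, 15 to 30.8 and 11.7 to 18, and in the 3 IgG libraries 1.62, 3.09 and 1.81. Every RIP library was above every RNA library, by 3.41, 3.37 and 3.20 on the log2 scale in the 3 treatments (exact permutation p 0.0286, adjusted 0.04 for each).

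Reads of Ifngr2 over Ifngr1 were 2.45 to 5.28 in DMSO RNA, 6.29 to 10.6 with LPS and 3.8 to 5.68 with LPS and TM7nox. In RIP they were 8.67 to 15.3, 21.2 to 34.9 and 12.2 to 24.6, and in IgG 1.9, 4.14 and 3.23. RIP was above RNA by 1.93, 1.82 and 1.91 on the log2 scale (exact permutation p 0.0286, adjusted 0.04 for each), without overlap. These differences do not depend on scaling, whereas the call of Ifngr1 by itself did.

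Between treatments, Ifngr2 over Ifngr1 was higher with LPS than in DMSO by 1.26 on the log2 scale in RNA and 1.16 in RIP. With TM7nox it was lower than with LPS in RNA, by a log2 difference of -0.66 (exact permutation p 0.0286, adjusted 0.04 for each). These p-values restate that the groups did not overlap. The change of -0.57 in RIP with TM7nox was not called (exact permutation p 0.114). For Ifnar1 over Ifnar2, the RNA difference of TM7nox against LPS was -0.50 (exact permutation p 0.0286, adjusted 0.04). LPS against DMSO gave 0.48 in RNA (exact permutation p 0.114) and 0.45 in RIP (0.143), and TM7nox against LPS gave -0.67 in RIP (0.0857). By same-numbered pairs, Ifngr2 over Ifngr1 was lower with TM7nox in 4 of 4 RIP pairs, and Ifnar1 over Ifnar2 was higher with LPS in 4 of 4 RNA pairs. An exact sign-flip test over 4 pairs cannot go below 0.125, so the pairs give no call. With a library left out the groups hold 3 against 4, and some exact p-values rose above 0.05 while the differences kept their direction. The Ifngr2 over Ifngr1 rise with LPS in RNA was then 1.11 to 1.5 on the log2 scale, with p 0.0571 without any of the 4 LPS libraries. Its drop with TM7nox was -0.76 to -0.51, with p 0.0571 to 0.0857 without RNA LPS+TM7nox replicate 2, 3 or 4. For Ifnar1 over Ifnar2 the drop was -0.63 to -0.28, with p 0.114 to 0.171 without any LPS+TM7nox library and the smallest difference, -0.28, without RNA LPS replicate 1. Without RIP LPS replicate 4 the RIP differences of Ifnar1 over Ifnar2 were 0.65 and -0.88, each with an exact permutation p of 0.0286.

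**Figure D5:**
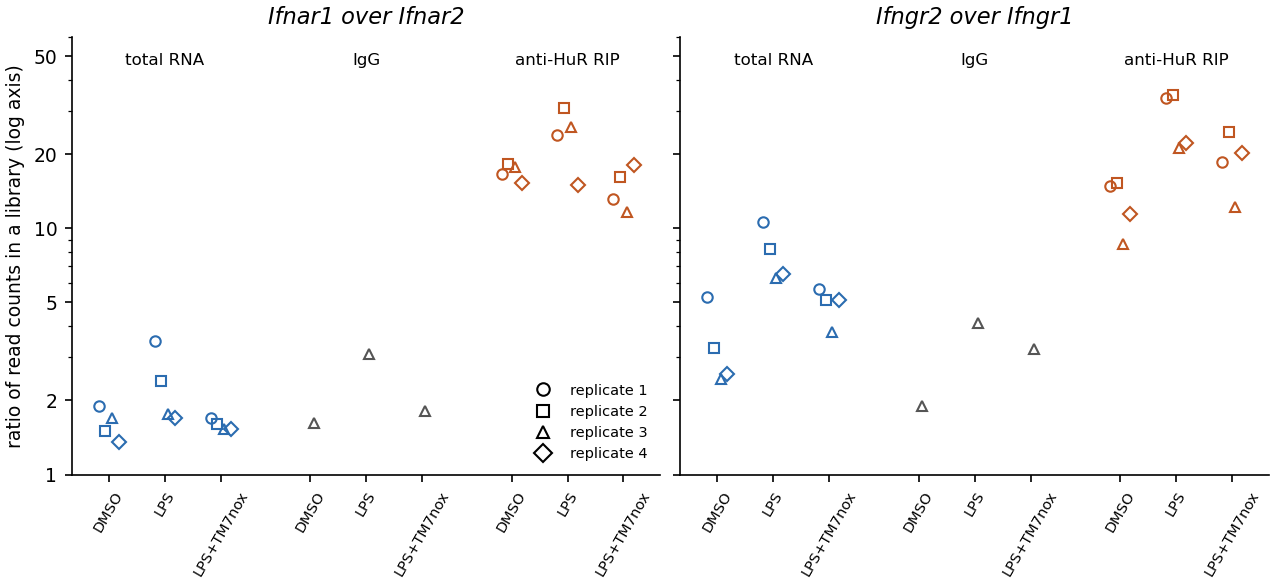
Ratio of read counts of 2 receptor chains in each library (log axis), for total RNA, IgG and anti-HuR RIP libraries in the 3 treatments, with shape by replicate number. Ifnar1 over Ifnar2 is 1.36 to 3.5 in RNA and 11.7 to 30.8 in RIP, and the IgG points, at 1.62, 3.09 and 1.81, lie below every RIP point.

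The genes whose log2 CPM followed each of the 6 most closely over the 12 RNA libraries were taken from 8247 genes with a mean of at least 5 CPM. These correlations are descriptions over 12 libraries that share 3 treatments and their sequencing, and a gene that differs between DMSO and LPS can score high from that difference alone. Ifnb1 was closest to Apobec3 (r = 0.985, and 0.931 over the 12 RIP libraries), Tob2 (0.983 and 0.716) and Ankrd17 (0.977 and 0.935). Usp18 was closest to Ifih1, a cytosolic RNA sensor gene (0.996 and 0.986), Tmem184b (0.995 and 0.965) and Peli1 (0.995 and 0.948). For Ifngr1 the closest were H4c8 (0.986 and 0.673), Mef2c (0.983 and 0.772) and H3c1 (0.982 and 0.691). For Ifnar2, Wrn and Naa60 had r of 0.883 and 0.878 in RNA but -0.0643 and -0.352 in RIP. Ifnar1 was closest to Rab32 (0.93) and Trps1 (0.93), and Ifngr2 to Pid1 (0.925) and Pttg1 (0.921). Among the 6 themselves, Ifnar1 and Ifngr2 had r = 0.88 in RNA and Ifnb1 and Usp18 had 0.903, while Ifngr1 and Usp18 had -0.903.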

How the data were processed

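Counts were deposited by the authors as 1 table of whole reads per gene, with no normalization, for 27 libraries. The submitters' processing notes name FastQC 0.11.9, STAR, HTSeq, DESeq2 and GRCm39, without role or order. No annotation release or strand setting is given in the sources used here. Libraries were made with a SMART-Seq Stranded kit, per the labels' protocols, and no molecular identifiers are stated, so reads may not be independent molecules. Standard errors come from the fits and include the spread between libraries.

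Counts were tested in R 4.3.3 with edgeR 4.0.16 (quasi-likelihood F test, two-sided, TMM scaling, filterByExpr with a minimum count of 10, Benjamini-Hochberg adjustment over all genes tested, called under 0.05). A fit held the 12 RNA libraries, another the 12 RIP libraries, another these 24 for RIP over RNA and its change by treatment, and another the 15 of RIP and IgG with treatment as a term. Adjusted p-values come from edgeR except where DESeq2 or a permutation test is named. Log2 CPM for the likeness of genes used a prior count of 2. Percents of genes and promoters were computed here. The fits were also run on simulated data in which few genes differed, which cannot test the scaling where many genes differ, as between RIP and RNA.

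The members, gene lists and tests were chosen with earlier results of these data known. Named genes are the 6 members, up to 2 called genes per list in each of the RNA comparisons of LPS with DMSO and of LPS+TM7nox with LPS, and genes among the 3 most like each member. Some like genes and 3′ UTR windows are not reported here. Ptpn6, Il10rb, Tlr4 and the list genes named for an alternative were chosen after their values were seen.

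Replicate numbers come from the labels. Deviations of same-numbered libraries from their group means correlated at 0.317 to 0.664 in RNA and 0.324 to 0.772 in RIP, over 0.1 in 12 of 12 pairs each, so the numbers were taken to pair the libraries. Different-numbered libraries correlated at -0.551 to 0.575 in RNA, over 0.1 in 7 of 36 pairs. In RIP they correlated at -0.624 to 0.307, over 0.1 in 5 of 36. The value of 0.575 was between RNA LPS replicate 3 and RNA LPS+TM7nox replicate 4. Between RNA and RIP, 35 of 36 same-numbered pairs and 21 of 108 others were over 0.1. Alternatives were DESeq2 1.42.0, its size factors in edgeR, total counts without TMM, no low-count filter, a replicate block, replicates 1 and 2 or 3 and 4 alone (for IgG, replicate 3 alone), and each library left out. Gene positions and 3′ UTRs are from GENCODE M39 on GRCm39. Promoters are RefSeq's (GRCm38.p6), matched by symbol for 5 of 6 members. Usp18 was not matched.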

Additional observations from a re-analysis of the deposited data

Results flagged for a closer look

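Among 36 groups of 4 libraries (6 genes in 6 groups), 2 had a library far from the other 3, and chance sets apart about 1 group in 20. Ifnar1 in the RIP DMSO libraries was lowest in replicate 2, at 344 CPM, with the nearest of the others at 507 CPM. Without that library the log2 change of Ifnar1 with LPS in RIP was -0.02 in place of 0.15, and neither was called. Ifngr1 in the RNA DMSO libraries was lowest in replicate 1, at 19.7 CPM, with the nearest at 28.3 CPM. That library is the shallowest, with 2.73 M counts. Ifngr1 was called lower with LPS when it was left out as well.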

How the results depend on the processing

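Of 1116 refitted log2 changes of the 6 genes, 990 kept their direction and side of the threshold, 48 passed it newly, 19 lost it and 59 changed sign. Where a value moved, the cause was not tested. Over all genes, replicates 1 and 2 alone called 1668 genes for LPS in RNA, 168 for TM7nox in RNA, 2246 for LPS+TM7nox against DMSO, 3392 for LPS in RIP and 789 for TM7nox in RIP. Replicates 3 and 4 alone called 3489 for TM7nox in RNA and 1070 in RIP. With the replicate block 3091 and 4577 were called for TM7nox in RNA and RIP, in place of 1704 and 2212. The block changed 8 of 60 calls of the 6 genes, each from not called to called, and no other.

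Of the 6 genes, the number called for TM7nox in RNA was 0 with total counts, 2 without the low-count filter, 3 with the replicate block, 0 for the first pair of replicates, 2 for the second pair, and 0 to 1 with a library left out. Of all genes, 5.81% were higher and 6.18% lower there with total counts, and 12.3% and 12.7% with the replicate block. For LPS+TM7nox against DMSO the pairs of replicates gave 1 and 5. For LPS in RIP the number was 5 with total counts, where 9.54% of all genes were higher and 47.2% lower. For TM7nox in RIP it was 1 in DESeq2 (all genes 10.8% higher, 10.1% lower) and 3 with the replicate block (16.6% and 17%). There it was 1 in replicates 1 and 2, and 0 to 1 with a library left out. For replicate pairs, single libraries left out and the fit without the filter, no share of all genes is given. Those counts are no result about the 6 genes.

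The change of RIP over RNA by LPS called 62 genes in DESeq2, 27 with total counts, 49 without the filter, 50 with the replicate block, 0 and 13 for the pairs of replicates, and 4 to 11 with a library left out. That by TM7nox called 3, 2, 5, 2, 0 and 0 in the same order, and 1 to 3 with a library left out.

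Log2 changes that turned sign are given next, those with a library left out as the full range. In RNA, Ifnar1 with LPS was -0.026, and with TM7nox Ifnar2 was -0.094 and Usp18 0.10, in replicates 3 and 4. Usp18 ranged from -0.082 to 0.12 with a library left out. Ifnar2 with LPS+TM7nox against DMSO was 0.022 in replicates 1 and 2. In RIP, Ifnar1 with LPS was -0.49 with total counts, there called lower (FDR 0.0373), -0.28 in replicates 3 and 4 and -0.024 to 0.25 with a library left out. Ifngr2 with LPS was -0.076 with total counts. With TM7nox, Ifnar1 was 0.027 in replicates 3 and 4 and Ifngr1 -0.033 to 0.20 with a library left out. For RIP over RNA, Ifnar2 in DMSO was 0.070 in DESeq2, 0.069 with its size factors and up to 0.073 with a library left out (lowest -0.17). In LPS+TM7nox it was -0.83 with total counts and -0.000316 without the filter. Against IgG with total counts, Ifnb1 was -0.20, Ifnar2 -0.64 and Ifngr1 -0.020.

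In the change of RIP over RNA by LPS, Ifnb1 was 0.11 without the filter, 1.08 for the first replicate pair and -0.57 to 0.52 with a library left out. Ifngr2 was 0.073 in DESeq2, 0.071 with its size factors, 0.15 without the filter, 0.058 in replicates 1 and 2 and -0.12 to 0.31 with a library left out. Ifngr1 was -0.15 with total counts. Usp18 was -0.17 with total counts, -0.14 in replicates 1 and 2 and -0.21 to 0.34 with a library left out. In the change by TM7nox, Ifngr1 was -0.039 without the filter, -0.024 in replicates 3 and 4 and -0.062 to 0.18 with a library left out. Ifngr2 ranged from -0.096 to 0.40 and Ifnb1 from -0.20 to 0.96 with a library left out.

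Of 112 chain-ratio tests with a library left out, 99 were on the same side, 11 lost and 2 gained an exact p under 0.05. Depth limits Ifnb1 most, with 5 RNA and 12 RIP reads over the DMSO libraries.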
